A study of Homo sapiens with 4 samples.

Results

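The 10 cytokine and chemokine transcripts described here were counted in the glioblastoma cell line U87 MG after silencing of PELP1. They are those of the interleukins IL1A, IL1B and IL6, the interleukin-6 relative LIF, the colony-stimulating factors CSF2 and CSF3, and the CXC chemokines IL8 (current symbol CXCL8), CXCL1, CXCL2 and CXCL3. They were picked by symbol, 10 of the 23228 gene symbols counted, with their PELP1 siRNA to control siRNA differences already known, so those differences are given as a description and without a test. The protein PELP1 acts as a scaffold for nuclear receptors and histone modifiers and also works in ribosome assembly. Cells received control siRNA or siRNA against PELP1, and total RNA was harvested 72 hours later, with 2 libraries per group. Both groups share the cell line, medium with 10% serum and the transfection reagent. U87 is a single cell line, and the labels name duplicates only, so any p-value measures the spread between these libraries, which may be technical.

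Interleukin-1 alpha and beta bind a common receptor that signals through NF-kB, and NF-kB in turn drives transcription of many cytokine genes. Interleukin-6 and LIF signal through the shared receptor chain gp130 to JAK kinases and STAT3. CSF2 (GM-CSF) and CSF3 (G-CSF) promote the production and survival of granulocytes and, for GM-CSF, macrophages, and IL8 and CXCL1 to CXCL3 attract neutrophils through the receptors CXCR1 and CXCR2. Many cytokine mRNAs carry AU-rich elements, repeats of ATTTA in the DNA sense, in their 3' untranslated regions, where proteins that speed or slow decay bind. Glioblastoma cells are known to secrete several of these factors.

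Reads assigned to genes came to 18670162 to 22858988 per library. PELP1 itself stood at 74.0 and 78.1 CPM (counts scaled to a common library size with TMM factors) in the control libraries and at 15.2 and 17.7 CPM in the PELP1 siRNA libraries. The genes CDKN2A, CDKN2B and MTAP, which lie in a deletion known in U87, had 0 counts in all 4 libraries. The mesenchymal and glioma markers VIM, CD44 and TNC were abundant, SOX2, S100B and PTPRZ1 had at most 4 counts in any library, and the astrocyte filament gene GFAP had 24 to 35 counts. Of 12 immune cell markers, 4 had 0 counts in all libraries and 8 stayed under 10 counts in every library, among them PTPRC (CD45) with 1 to 2 counts and SPI1 with 0. CD14 had 5 to 14 counts and CD163, a macrophage receptor, 13 to 16. CSF1R, the receptor of macrophages and microglia for CSF1, was present, with 395 and 470 counts (20.4 and 21.0 CPM) in the controls and 336 and 357 counts (17.1 and 18.8 CPM) in the silenced libraries, and was not called (log2 fold change -0.21, adjusted p = 0.146). The summed level of the 12 was 442 and 449 CPM in the controls and 404 and 443 CPM in the silenced libraries. Most of it was CD68, a lysosomal protein that other cells make too. Of the CD68 exon bases, 85.6% overlap other annotated genes, on the same and on the other strand. The part of this sum in the results was not tested. Of 10 glioma and astrocyte line markers, 7 were tested, of which 3 (VIM, CD44 and NES) were called lower and none higher. Of all genes tested, 15.0% were called lower and 12.9% higher. None of the 10 markers was at 0 in all libraries. Their summed level was 12539 and 12626 CPM in the controls and 10744 and 11245 CPM in the silenced libraries, and the part of these in the results was not tested either. In bulk RNA, fewer cells of a kind and less RNA per cell cannot be told apart.

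The 10 transcripts together took 2214 and 2250 CPM in the control libraries and 936 and 994 CPM in the PELP1 siRNA libraries. As a share of all gene counts this was 0.218% and 0.221% against 0.0951% and 0.101%. Without CSF3, the most abundant of them, the sums were 1142 and 1172 CPM against 499 and 514 CPM. Of the 10, 8 were called lower and 0 higher (edgeR; 9 and 0 at an unadjusted p under 0.05, and 8 and 0 with DESeq2 or limma-voom), where 15.0% of the 13234 genes tested were called lower and 12.9% higher. Both PELP1 siRNA libraries lay below both controls for 9 transcripts and above both for 1, CXCL1, against 32.3% and 32.0% of all genes tested. The median log2 fold change of the 10 was -1.13, beside 8.8e-04 for all genes tested. Scaling by total counts moved the split of all calls from 53.6% to 41.3% lower, and left 8 of the 10 lower. These counts restate what the transcripts were picked on.

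**Figure D1:**
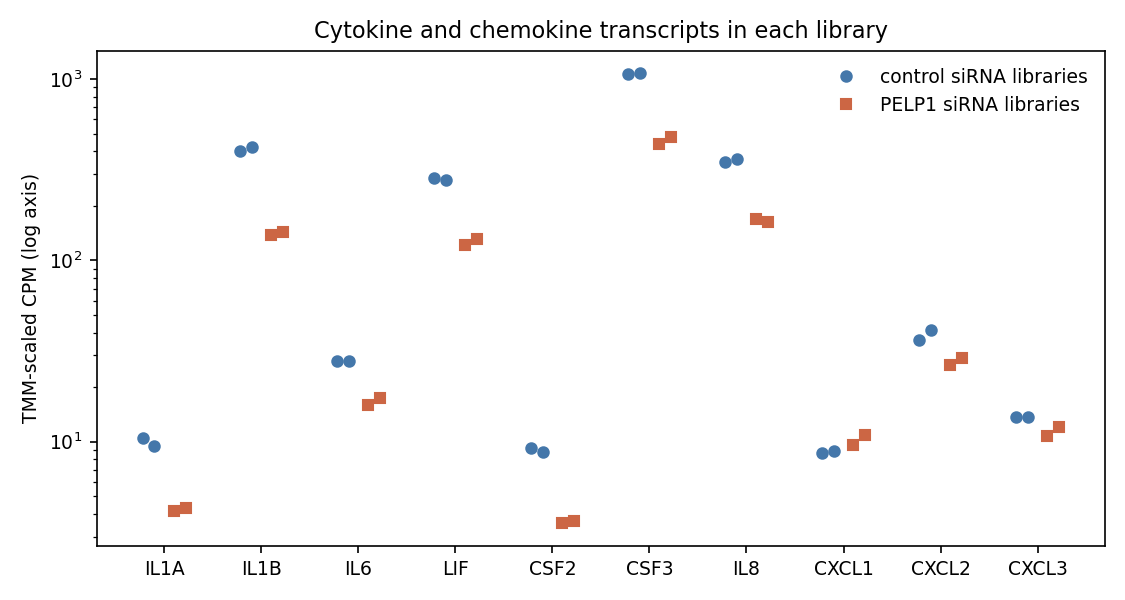
TMM-scaled CPM on a log axis for each of the 10 transcripts, with 1 point per library (circles for 2 control siRNA libraries, squares for 2 PELP1 siRNA libraries). The groups are apart for every transcript, with PELP1 siRNA lower for 9 and higher for CXCL1.

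The interleukin-1 genes lie side by side on chromosome 2 and differ widely in level. IL1B (GRCh37 chromosome 2, 113587328 to 113594393, minus strand) encodes the secreted interleukin-1 beta, which is made as a precursor and cut by caspase-1. It had 402 and 423 CPM in the controls and 138 and 144 CPM in the silenced libraries, from 7786, 9470, 2727 and 2733 counts. Both silenced libraries were thus far below both controls, at 34.3% of the mean of the controls, the lowest share among the 10 (log2 fold change -1.55, SE 0.065). IL1A (113531502 to 113542070, minus strand), whose precursor is already active and can stay on the cell surface or in the nucleus, had 10.5 and 9.51 CPM against 4.16 and 4.32 CPM. Its counts were 204 and 213 against 82 and 82, so that counting error weighs more, and the log2 fold change was -1.24 (SE 0.15). The ratio of IL1B to IL1A counts, which needs no library scaling, was 38.2 and 44.5 in the controls and 33.3 in both PELP1 siRNA libraries.

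Both members of the interleukin-6 family were lower, IL6 by less than LIF. IL6 (chromosome 7, 22765503 to 22771621, plus strand), an inducer of the acute phase response, had 28.0 and 27.8 CPM in the controls and 16.04 and 17.4 CPM in the silenced libraries. That is a log2 fold change of -0.74 (SE 0.10), with no overlap of the groups. LIF (chromosome 22, 30636442 to 30642748, minus strand), which maintains stem cell states and acts on neural precursors, had 285 and 278 CPM against 121 and 131 CPM. Its log2 fold change was -1.16 (SE 0.067). LIF counts were 10.2 and 10.0 times those of IL6 in the controls and 7.56 and 7.52 times in the PELP1 siRNA libraries. In the annotation, 9.91% of IL6 exon bases overlap genes on the other strand (IL6-AS1 and STEAP1B), and 4.37% of LIF exon bases overlap LIF-AS1 and LIF-AS2, and the strand setting of the counting is not given in the sources used here.

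The colony-stimulating factors were lower in near proportion, although CSF3 had over 100 times the counts of CSF2. CSF3 (chromosome 17, 38171614 to 38174066, plus strand), the granulocyte colony-stimulating factor, stood at 1072 and 1079 CPM with control siRNA and at 437 and 480 CPM after silencing (log2 fold change -1.23, SE 0.063). CSF2 (chromosome 5, 131409482 to 131411863, plus strand), the granulocyte-macrophage factor, had 9.29 and 8.79 CPM against 3.55 and 3.64 CPM, from 180, 197, 70 and 69 counts (log2 fold change -1.33, SE 0.16). Each factor's silenced libraries lay below 1 in 2 of the level of either control library. The ratio of CSF3 to CSF2 counts was 115 and 123 in the controls and 123 and 132 with PELP1 siRNA, so that the pairs nearly touched without overlapping.

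The chemokines did not move as one. IL8 (chromosome 4, 74606236 to 74609433, plus strand) had 349 and 361 CPM in the controls and 169 and 162 CPM in the silenced libraries (log2 fold change -1.10, SE 0.064). CXCL2 (74962757 to 74964913, minus strand) had 36.6 and 41.3 CPM against 26.7 and 28.9 CPM (log2 fold change -0.49, SE 0.096). CXCL3 (74902306 to 74904524, minus strand) had 13.7 CPM in both controls against 10.7 and 12.1 CPM (log2 fold change -0.26, SE 0.12). CXCL1 (74735110 to 74737025, plus strand) was the exception in direction, with 8.72 and 8.84 CPM against 9.59 and 10.9 CPM (log2 fold change 0.22, SE 0.13). Its counts were 169, 198, 189 and 206. CXCL1 and CXCL3 are the 2 transcripts that were not called. IL8 had 40.0 and 40.8 times the counts of CXCL1 in the controls, but 17.6 and 14.96 times in the PELP1 siRNA libraries. For CXCL2 over CXCL1 the ratios were 4.195 and 4.67 against 2.78 and 2.66, and for CXCL3 over CXCL1 they were 1.57 and 1.55 against 1.12 in both silenced libraries. Within every library these ratios are free of scaling, and in each the silenced pair lay below the control pair.

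**Figure D2:**
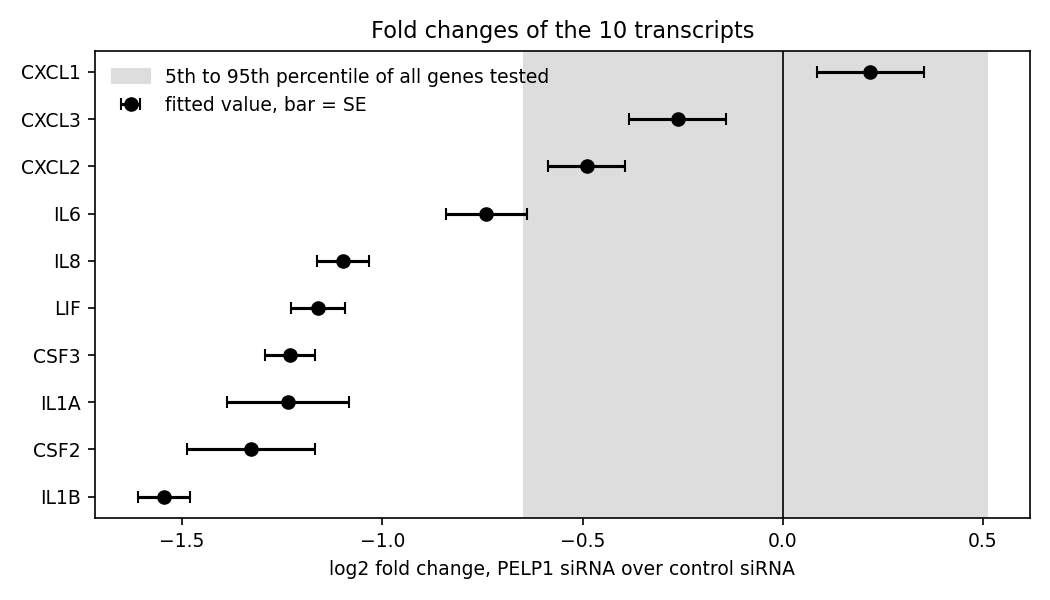
Fitted log2 fold change of PELP1 siRNA over control siRNA for the 10 transcripts, with bars for 1 SE, over a grey band from the 5th to the 95th percentile of all genes tested (-0.65 to 0.51). IL1B lies lowest at -1.55, and CXCL1, CXCL3 and CXCL2 lie inside the band.

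IL8, CXCL1, CXCL3 and CXCL2 belong to 1 cluster on chromosome 4, and the other genes between them were nearly silent or differed little. CXCL6, PF4V1, PF4 and PPBP, at 96.1, 113, 240 and 246 kb from IL8, all stayed under 1 CPM in every library. CXCL5, a further neutrophil chemokine 255 kb away, had 9.96 and 11.6 CPM in the controls and 9.14 and 8.64 CPM in the silenced libraries (log2 fold change -0.28, SE 0.13, adjusted p = 0.124). Of its exon bases, 17.3% overlap an annotated gene on the other strand. The difference thus varied along the cluster, from IL8 at 1 end to CXCL2 at 357 kb. Between them CXCL1, 129 kb away, was slightly higher with PELP1 siRNA but not called.

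**Figure D3:**
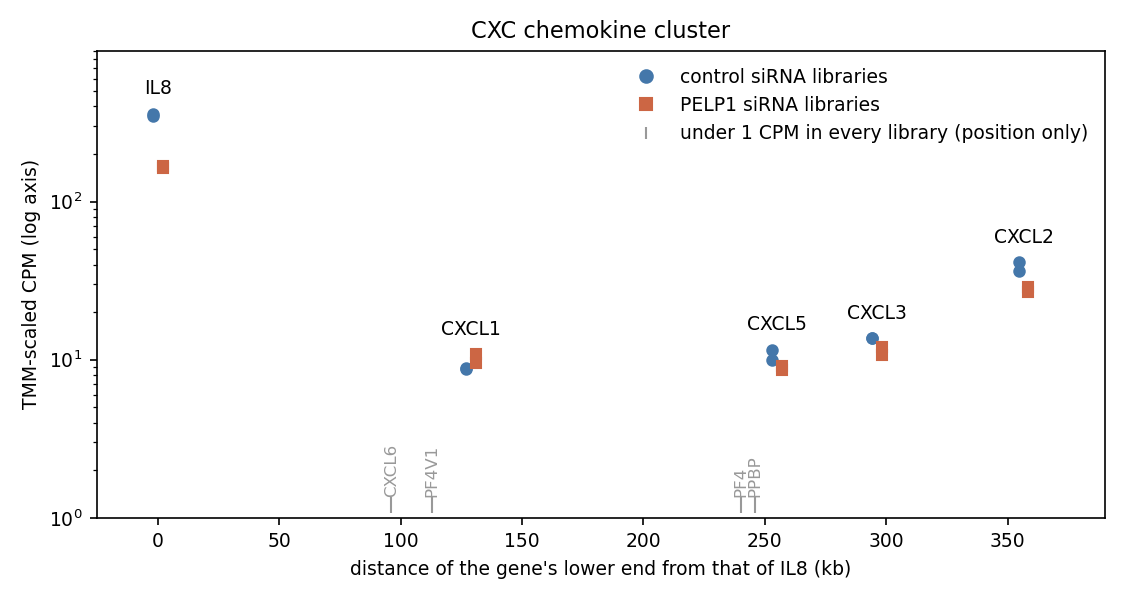
TMM-scaled CPM on a log axis against the distance in kb of each gene's lower end from that of IL8, 1 point per library, with grey ticks for 4 genes under 1 CPM. The control and PELP1 siRNA libraries are widely apart at IL8 and close at CXCL1, CXCL5 and CXCL3.

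CXCL1, CXCL2 and CXCL3 are close copies of one another. Their coding sequences are 93.5% (CXCL1 and CXCL2), 91.6% (CXCL1 and CXCL3) and 94.4% (CXCL2 and CXCL3) identical, against 59.5% to 61.1% with IL8. Of the 50-base windows of the canonical transcript, the read length used here, 5.33% in CXCL1, 10.1% in CXCL2 and 5.26% in CXCL3 occur exactly in one of the other copies. No window of IL8, IL1A, IL1B, CSF2 or CSF3 occurs in another annotated gene's transcript. Reads from shared windows would align more than once, and how mismatches were handled is not given, so the levels of these 3 chemokines are less certain than the others. Their promoters are nearly the same next to the start site: over the 100 bases before it, CXCL1 and CXCL2 are 95% identical, CXCL1 and CXCL3 90%, and CXCL2 and CXCL3 91%, while IL8 is 51% to 53% identical to them.

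These 100 bases are shown because CXCL1 and CXCL2, alike in sequence here, had fold changes of opposite sign. That of CXCL1 was not called. The stretches also hold the longest word common to the 300-base promoters of all 4 chemokines, of 9 bases. Sequences are from the RefSeq promoter table (GRCh38.p14), which matched 8 of the 10 genes (not CSF3 or LIF), and were placed by exact match on GRCh37. Each runs 5′ to 3′ on the gene's strand up to the base before the RefSeq start, the same as that of the canonical GENCODE transcript. The gene spans given above cover all annotated transcripts, and those of IL6, IL8, CXCL3 and CXCL2 begin further upstream and overlap the stretches shown. Capitals mark that word and any match to the NF-kB consensus of 10 letters.
IL8 (chr4:74606186-74606285, plus strand): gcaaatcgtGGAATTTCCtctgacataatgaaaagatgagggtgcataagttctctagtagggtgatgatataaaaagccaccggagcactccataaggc
CXCL1 (chr4:74735010-74735109, plus strand): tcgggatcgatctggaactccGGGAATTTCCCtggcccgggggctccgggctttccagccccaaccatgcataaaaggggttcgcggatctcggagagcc
CXCL2 (chr4:74964913-74965012, minus strand): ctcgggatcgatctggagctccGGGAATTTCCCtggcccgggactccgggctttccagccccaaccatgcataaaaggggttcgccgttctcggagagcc
CXCL3 (chr4:74904407-74904506, minus strand): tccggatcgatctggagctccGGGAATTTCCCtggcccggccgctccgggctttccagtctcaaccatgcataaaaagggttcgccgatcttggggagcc
IL6 (chr7:22766719-22766818, plus strand): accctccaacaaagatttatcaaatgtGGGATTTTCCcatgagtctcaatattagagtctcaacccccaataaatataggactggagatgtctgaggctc

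The shared word is GGAATTTCC. It begins 91 bases before the start of IL8, 78 before CXCL1 and CXCL3 and 77 before CXCL2, and stands on either strand in 0.463% of 34796 promoters of the same length. The word was found by comparing these 4 promoters, so its share is a description. The NF-kB consensus, searched on both strands from 250 bases before to 50 after the start, matched in CXCL1, CXCL2, CXCL3 and IL6, 4 of 8 promoters, against 11.3% of all promoters. The IL8 promoter holds the word, which lies within the matches of CXCL1, CXCL2 and CXCL3, but no full match to that consensus. The base before the word is t in IL8 and G in the others, so its absence from the 4 rests on that letter. AP-1 sites (TGANTCA) were found in IL8 and IL1A, against 7.73% of all promoters, and C/EBP sites (TTNNGCAA) in IL6, IL1B and CXCL2, against 10.5%. A match describes letters and not binding. CXCL1 holds the same consensus as CXCL2 at nearly the same distance from the start. Whether any of these sites bears on the differences was not tested.

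Like 68.8% of 19050 coding genes, every one of the 10 transcripts carries ATTTA in its 3' untranslated region. Their counts ran from 5 in IL1A to 10 in CXCL2, and per kb from 2.19 in LIF to 25.2 in CSF2. Of the 10, 8 have at least 5 per kb (all but IL1A and LIF), as do 9.44% of 19050 coding genes with a 3' untranslated region of at least 50 bases, whose median is 1.55 per kb. Overlapping repeats of this kind are known from mRNAs that decay rapidly. The longest runs were 5 copies in CSF2 and in CXCL2 and 3 copies in IL1B and in CXCL1. CSF2, with 25.2 per kb, had a log2 fold change of -1.33, LIF, with 2.19 per kb, one of -1.16. CXCL2, with 14.0 per kb, had one of -0.49. Whether the density bears on the differences was not tested. The densest 30-base stretches are shown for CSF2 and IL1B, the 2 lowest in fold change, and for CXCL1 and CXCL2. The fold changes of CXCL1 and CXCL2 differ in sign, but that of CXCL1 was not called. The stretches run 5′ to 3′ on the gene's strand from GENCODE transcripts on GRCh37, with ATTTA in capitals.
CSF2 (chr5:131411765-131411794, plus strand): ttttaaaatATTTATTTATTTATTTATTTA
IL1B (chr2:113587563-113587592, minus strand): ATTTATTTATTTAtttgtttgtttgtttta
CXCL1 (chr4:74736399-74736428, plus strand): ATTTATTTATTTAttcattagttttgaaga
CXCL2 (chr4:74963298-74963327, minus strand): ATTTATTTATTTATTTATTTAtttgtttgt

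Levels between genes were compared per kb of annotated exon (all exons merged), in CPM per kb and control libraries. CSF3 led with 483 and 486, followed by IL8 (135 and 139), IL1B (133 and 140), LIF (73.5 and 71.9), CXCL2 (26.2 and 29.5) and CSF2 (11.8 and 11.2). IL6 (6.48 and 6.44), CXCL1 (6.40 and 6.49), CXCL3 (6.18 and 6.16) and IL1A (5.22 and 4.71) came last. IL8 and IL1B did not differ beyond their spread, nor did IL6 and CXCL1. CSF3 made up 54.1% of the summed level of the 10 with control siRNA and 52.5% with PELP1 siRNA. CXCL1 made up 0.720% of that sum with control siRNA and 1.91% with PELP1 siRNA, from the eighth place to the sixth. The order rests on the length used: with the canonical transcript only, IL1B stood at 273 and IL8 at 216 CPM per kb on average, and IL6 at 24.8, above CSF2 at 11.5.

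Among the genes whose profile over the 4 libraries lay closest to the median profile of the 10 (Euclidean distance of log2 CPM centred on the controls, mean of at least 5 CPM) were ASB1, ANXA5, SLC7A5 and FPR1, at distances of 0.032 to 0.063. ANXA5, a protein that binds phosphatidylserine, averaged 1021 CPM in the controls and 470 CPM in the silenced libraries. FPR1, a receptor for bacterial formyl peptides, had 43.4 and 19.2 CPM. With 4 libraries such a profile holds little more than the difference between the groups.

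The 7 lists described from here on were chosen with earlier results of these data known, so their shares are a description. Other cytokines were measured less often but fell more often than they rose. Of 49 further interleukins, colony-stimulating factors and TNF-family genes, 17 had enough counts to be tested. Of all genes tested, 15.0% fell and 12.9% rose (edgeR quasi-likelihood test, adjusted p under 0.05 over all genes). Of the 17, 7 fell (41.2%), 1 rose (5.88%) and 9 did not pass. Their median log2 fold change was -0.38, and 2 rose without PELP1 siRNA library 2. CSF1, the macrophage colony-stimulating factor, fell from 178 and 174 CPM to 98.5 and 101 CPM (log2 fold change -0.82, SE 0.068, adjusted p = 3.08e-09). IL24, an interleukin-10 relative, fell from 3.40 and 4.196 CPM to 1.12 and 0.896 CPM (-1.92, SE 0.26, adjusted p = 5.64e-06), and 41.6% of its exon bases overlap FCMR on the other strand. IL15, which supports natural killer and T cells, rose from 5.88 and 5.18 CPM to 8.63 and 9.54 CPM (0.72, SE 0.15, adjusted p = 8.01e-04). IL36B, an interleukin-1 relative, held 98.2 and 99.2 CPM against 94.0 and 93.8 CPM (log2 fold change -0.072, adjusted p = 0.483). The list thus held strong falls, a rise and an abundant interleukin-1 relative that did not pass the test.

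Few other chemokines were present, and those differed in direction. Of 40, 7 were tested and 20 had 0 counts in all libraries. CXCL12, the ligand of CXCR4, rose from 8 and 11 counts to 62 and 66 counts, or from 0.413 and 0.491 CPM to 3.15 and 3.48 CPM (log2 fold change 2.85, SE 0.30, adjusted p = 2.07e-07). CCL3, a macrophage inflammatory protein, fell from 1.86 and 1.70 CPM to 0.609 and 0.422 CPM (-1.77, SE 0.34, adjusted p = 4.52e-04), from 36, 38, 12 and 8 counts, and 74.6% of its exon bases lie under an antisense gene. DESeq2 called 0 of these 7 lower (1 at an unadjusted p under 0.05) and gave no adjusted p for 3 of them, CCL3 included. CCL2, the monocyte attractant and the most abundant of this list, had 26.9 and 29.2 CPM against 27.8 and 28.8 CPM, so that its groups overlapped (log2 fold change 0.0091, adjusted p = 0.954). In all, 5 did not pass the test, CCL2 and CXCL5 among them.

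Of 19 receptors for the 10 factors and their relatives, 11 were tested. CXCR1, CSF2RA, CSF2RB and CSF3R had 0 counts in all libraries, and CXCR2 had at most 1 count in any library. The tested genes thus include no listed receptor of CSF2, CSF3, IL8 or CXCL1 to CXCL3. Of the 11, 1 was higher (9.09%) and 2 lower (18.2%), shares near the 12.9% and 15.0% of all genes tested. The counts were 2 and 3 without PELP1 siRNA library 1, and 4 and 4 without library 2. IL6ST, which encodes gp130, had 581 and 585 CPM in the controls and 483 and 363 CPM in the silenced libraries (log2 fold change -0.46, SE 0.10, adjusted p = 0.00638, and 0.0899 with DESeq2). The silenced libraries of IL6ST were both lower but far from each other. OSMR, the oncostatin M receptor that pairs with gp130, fell from 243 and 248.5 CPM to 198 and 175 CPM (-0.40, SE 0.069, adjusted p = 1.29e-04). The receptor genes IL1R1 (log2 fold change -6.4e-04, adjusted p = 0.996) and IL6R (0.10, adjusted p = 0.429) did not pass. IL1RAP, the co-receptor of interleukin-1, rose from 19.9 and 20.7 CPM to 28.7 and 25.6 CPM (0.42, SE 0.10, adjusted p = 0.00293, and 0.0965 without control library 1).

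Among 26 tested genes of interleukin-1 signalling to NF-kB, 6 fell, 3 rose and 17 did not pass. The list also counts the C/EBP factors CEBPB, which fell, and CEBPD, which rose. The shares of 23.1% lower and 11.5% higher stood beside 15.0% and 12.9% of all genes tested. The median log2 fold change of the 26 was -0.12. Without control library 1 or 2, 1 was higher, and without PELP1 siRNA library 1 there were 11 lower. The kinase IRAK2, which works just below the interleukin-1 receptor, fell from 86.3 and 88.2 CPM to 61.5 and 61.8 CPM (-0.50, SE 0.075, adjusted p = 2.11e-05). TNFAIP3 (A20), a feedback inhibitor that NF-kB induces, fell from 44.6 and 43.97 CPM to 32.1 and 31.9 CPM (-0.47, SE 0.088, adjusted p = 3.27e-04). NFKBIA, another such inhibitor, had 84.2 and 88.1 CPM against 87.5 and 97.4 CPM and did not pass (log2 fold change 0.10, adjusted p = 0.342). Nor did the NF-kB subunit genes NFKB1, NFKB2, RELA, RELB and REL. CEBPD, a C/EBP transcription factor of inflammatory genes, rose from 1.86 and 1.92 CPM to 7.46 and 6.69 CPM (1.90, SE 0.19, adjusted p = 8.42e-08). BCL3, an atypical inhibitor protein of NF-kB, rose by 0.36 on the log2 scale (adjusted p = 0.00670, but 0.101 and 0.147 without control library 1 or 2). IRAK1, the most abundant of the list, had 628 and 618 CPM against 549 and 604 CPM (log2 fold change -0.11, adjusted p = 0.196, but 3.58e-05 without PELP1 siRNA library 2). TNIP1, a partner of A20, fell by 0.19 (adjusted p = 0.0268, but 0.0905 with total counts and 0.341 and 0.332 without control library 1 or 2).

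In JAK-STAT signalling, STAT3 went the other way from the interleukin-6 family ligands. Of 12 tested, 3 rose, 1 fell and 8 did not pass, with 1 higher without control library 1 or 2. The lower ones numbered 0 without control library 1, and 3 and 2 without PELP1 siRNA library 1 or 2. STAT3 rose from 127 and 126 CPM to 185 and 178 CPM (log2 fold change 0.52, SE 0.066, adjusted p = 2.55e-06). PIAS3, named as an inhibitor of activated STAT3, rose by 0.25 (adjusted p = 0.0184, but 0.263 and 0.279 without control library 1 or 2). The kinase TYK2 fell by 0.36 (adjusted p = 0.00121, but 0.111 without control library 1). The kinase JAK1 (log2 fold change -0.13, adjusted p = 0.119) and the phosphatase PTPN11 (-0.14, adjusted p = 0.121) did not pass, although JAK1 did at 0.00267 and 0.0179 without PELP1 siRNA library 1 or 2, and PTPN11 at 8.02e-07 without library 1.

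The 15 genes of proteins that bind AU-rich elements or act in cytokine mRNA decay were all tested. Of these, 5 fell (33.3%) and 0 rose, beside 15.0% and 12.9% of all genes tested, and 10 did not pass. With edgeR 1 was higher at an unadjusted p under 0.05, and DESeq2 called 3 lower and 0 higher (5 and 0 unadjusted). Without control library 1 or 2, 3 were lower, and 1 was higher with total counts or without PELP1 siRNA library 1 and 2 without library 2. ZFP36L2, of the tristetraprolin family that promotes decay, fell from 41.6 and 40.7 CPM to 23.0 and 23.2 CPM (-0.83, SE 0.092, adjusted p = 3.30e-07). The ZFP36L2 exons share 22.4% of their bases with a gene on the other strand. ELAVL1 (HuR), which stabilises such mRNAs, fell from 127 and 125 CPM to 90.4 and 91.0 CPM (-0.47, SE 0.070, adjusted p = 1.80e-05). A promoter of decay and a stabiliser were thus both among the 5 that fell. The others were ZFP36 itself (tristetraprolin; log2 fold change -0.41, adjusted p = 0.0105), RC3H2 (-0.77, adjusted p = 0.00613) and ZC3H12A (-0.26, adjusted p = 0.0170). For HNRNPD (AUF1) the log2 fold change was 0.015 (adjusted p = 0.883), and for ZFP36L1 it was -0.069 (adjusted p = 0.440).

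Genes of the inflammasome and interleukin-1 processing fell in 4 of 11 tested cases and rose in 1, or in 2 and 0 without control library 1 and in 4 and 0 without control library 2. With all libraries, 36.4% of the 11 fell and 9.09% rose, beside 15.0% and 12.9% of all genes tested. NLRP3, the sensor that activates caspase-1, fell from 11.0 and 12.9 CPM to 5.69 and 4.69 CPM (-1.20, SE 0.15, adjusted p = 1.83e-06). Of its exon bases, 66.0% overlap another annotated gene on the same strand. CASP1, which encodes caspase-1 itself, had 4.64 and 5.18 CPM against 5.74 and 4.37 CPM and did not pass (log2 fold change 0.041, adjusted p = 0.888). The inflammatory caspase CASP4 fell from 32.4 and 32.8 CPM to 22.9 and 23.3 CPM (-0.50, SE 0.094, adjusted p = 3.29e-04). CAPN1, a calpain, fell by 0.31 (adjusted p = 0.00134, but 0.185 without control library 1). CAPN2, another calpain, rose by 0.16 (adjusted p = 0.0364, but 0.417 and 0.370 without control library 1 or 2, and 0.0666 with the replicate number as a block).

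Over these 7 lists together, 26 of 99 tested genes were lower (26.3%) and 10 higher (10.1%), beside 15.0% and 12.9% of all genes tested, with a median log2 fold change of -0.11. The counts moved with single libraries, from 18 to 34 lower and from 5 to 18 higher, with the fewest higher without a control library and the most without PELP1 siRNA library 2. No list was compared with other genes by a test, and the lists were chosen with earlier results known.

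**Figure D4:**
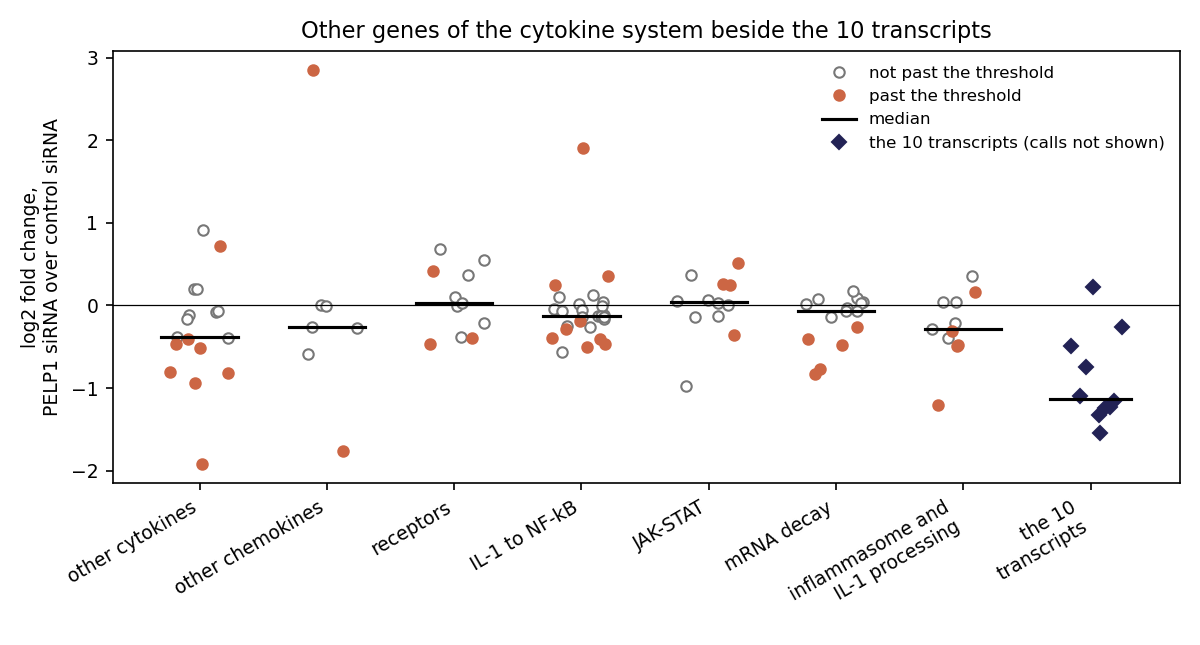
Log2 fold change of each tested gene in 7 lists of the cytokine system (filled where the adjusted p was under 0.05, open where not) and of the 10 transcripts (diamonds), with a bar at each list's median. The medians of the 7 lists lie from -0.38 to 0.039, and that of the 10 transcripts at -1.13.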

How the data were processed

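RNA of 2 control siRNA and 2 PELP1 siRNA libraries was sequenced with single-end reads of 50 bp, per the labels' protocols. The authors deposited raw read counts per gene symbol, made with CASAVA 1.8.2, TopHat2 2.0.8b and HTSeq on hg19 (GRCh37), per the submitters' processing notes. Not given in the sources used here are the HTSeq version, strand setting, annotation release and siRNA sequences. Summary lines of the counter, 36.0 to 37.6% of all counts, were left out. Of 23228 symbols, 13234 passed the filter filterByExpr of edgeR (at least 10 counts per library of a group, and 15 in total). TMM scaling preceded an edgeR 4.0.16 fit (R 4.3.3, robust quasi-likelihood, group as the only term), with Benjamini-Hochberg adjustment over all genes tested and a threshold of 0.05. The SE of a fold change was taken from the F statistic. DESeq2 1.42.0 and limma-voom (3.58.1) were alternatives, beside other scalings, filters, a fit that is not robust, each library left out and a replicate block. The coefficient of variation that edgeR terms biological was 5.23%, from duplicates whose spread may be technical. The pipeline was tested on data simulated with this same spread for all genes and both groups, unlike the unequal spread given below. Gene models, overlaps and 3' untranslated regions came from GENCODE release 44 on GRCh37, and a gene's CPM per kb used its merged exons.

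The transcripts and the 7 lists were chosen with earlier results of these data known. Named genes are the 10 transcripts, PELP1, the 2 called genes of smallest adjusted p in each direction and the 2 most abundant genes of each list, and the 5 closest profiles (unnamed loci, antisense genes and pseudogenes skipped), of which 1 is not reported here. CDKN2A, CDKN2B, MTAP and the other markers were named to check the cells. Some further genes of the lists were named for context and not by rank. Replicates were not copies of one library: the chi-square averaged 2.03 per gene between the controls and 6.80 between the silenced libraries, so each counted as 1 replicate.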

Additional observations from a re-analysis of the deposited data

How the results depend on the processing

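Under the 13 alternatives to the fit, each of the 10 transcripts kept the direction of its log2 fold change. The transcripts were picked on these differences, so this is a description and no test of them. The ranges were -1.58 to -1.50 for IL1B, -1.29 to -1.16 for CSF3, -0.79 to -0.68 for IL6, -0.57 to -0.40 for CXCL2, -0.35 to -0.17 for CXCL3 and 0.13 to 0.31 for CXCL1. Transcripts called lower numbered 7 to 9 when 1 library was left out (CXCL2 was lost without control library 2, and CXCL3 gained without PELP1 siRNA library 2) and 8 otherwise. Counts over all genes, 1712 higher and 1980 lower, ranged from 523 to 2724 higher and from 943 to 2804 lower when 1 library was left out. Such a fit takes the spread of the remaining sample from the other group. DESeq2 called 1133 higher. With all 4 libraries, the share of genes called lower ran from 11.4% (DESeq2) to 17.8% (filter of at least 5 CPM in 2 libraries). The share called higher ran from 8.96% (DESeq2) to 17.2% (total counts). The receptor gene LIFR, not called with all libraries, had a log2 fold change of 0.032 and was called in opposite directions, at log2 fold changes of -0.15 without PELP1 siRNA library 1 and 0.20 without library 2; the cause was not tested. Over the 7 lists, the calls ranged from 5 to 18 higher and from 18 to 34 lower when 1 library was left out. The level of the 10 summed per kb of exon, 894 CPM per kb in the controls, was 1222 by the longest transcript and 1374 by the canonical transcript, a length chosen after seeing the data. With the replicate number as a block, 8 of the 10 were called lower and 0 higher, with a median log2 fold change of -1.13. In that fit, 14.9% of all genes tested were called lower and 12.2% higher. The same-numbered libraries share a number only: their deviations correlated at -0.041 over 13234 genes. For CSF2, IL1A and CXCL1, with about 70 to 210 counts per library, depth limits the precision.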
